A study of Homo sapiens with 6 samples.

Results

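The RNAs described here are transcribed from the mitochondrial genome of K562, a long-established human cell line from a chronic myelogenous leukemia. The members were the chrM loci of the deposited table whose gene names hold MT-ND1, MT-ND2, MT-ND3, MT-ND5, MT-ND6, MT-CYB, MT-CO1, MT-CO2, MT-CO3 or MT-RNR1. Each of the 10 genes was found, in 10 loci, of 34 loci on chrM and 62828 loci in all. All 10 loci passed a minimum of 1 FPKM on their mean level, which 12838 loci of the whole table passed.

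The study measured RNA in 6 libraries, and its title names HNRNPU and the nuclear localization of long noncoding RNAs. In the control, K562 cells were transfected with siRNA control oligos. In the knockdown, K562 cells were transfected with siRNA against HNRNPU at 300 nM. From each condition there was 1 library of whole-cell RNA, 1 of nuclear RNA and 1 of cytosolic RNA, depleted of ribosomal RNA. All 6 groups were of the same cell line and carried no other modification that the labels name. With 1 library in each group, no difference has a replicate check and no test was made. A difference was called by size alone, at 2-fold, which is a log2 ratio of 1. The sources used here do not say whether the preparations of a condition shared a culture.

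Human mitochondrial DNA is a small circle that is read from promoters on both of its strands into long precursor RNAs. Most genes lie in the precursor from the heavy-strand promoter, and MT-ND6 is the mRNA of the light-strand one. Transfer RNAs sit between the longer genes, and their excision frees the mRNAs and the ribosomal RNAs. The mRNAs encode membrane subunits of respiratory complexes I, III, IV and V, and are translated inside the organelle by mitochondrial ribosomes. The values below describe the preparations as labelled.

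The annotation on chrM holds 13 protein-coding, 22 transfer RNA and 2 ribosomal RNA genes. The chrM coordinates of all 33 named loci in the table were those of GENCODE release 29, from which the sequences below were read. Merged loci are shown first, because they set what can be said about MT-CO3. Its table entry spans chrM:8366-9990 and joins MT-ATP8, MT-ATP6 and MT-CO3 in a single value. A second merged locus, chrM:10470-12137, joins MT-ND4L and MT-ND4, and another joins the transfer RNA genes MT-TC and MT-TY. MT-ATP8 and MT-ATP6 share 46 bases (chrM:8527-8572), which stand in capitals in both stretches, the last 60 bases of the first gene and the first 60 of the second.
MT-ATP8 end: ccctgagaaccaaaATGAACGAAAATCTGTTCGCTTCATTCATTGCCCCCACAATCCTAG
MT-ATP6 start: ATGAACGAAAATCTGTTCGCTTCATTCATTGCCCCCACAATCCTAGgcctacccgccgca

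MT-ATP6 ends on the base at which MT-CO3 begins, position 9207, so that the coding stretches of complex V and complex IV touch in 1 base, in capitals here.
MT-ATP6 end: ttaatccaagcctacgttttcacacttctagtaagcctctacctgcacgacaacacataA
MT-CO3 start: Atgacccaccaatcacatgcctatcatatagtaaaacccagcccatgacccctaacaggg

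MT-ND4L and MT-ND4 share 7 bases (chrM:10760-10766), again in capitals.
MT-ND4L end: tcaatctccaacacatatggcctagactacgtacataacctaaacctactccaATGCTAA
MT-ND4 start: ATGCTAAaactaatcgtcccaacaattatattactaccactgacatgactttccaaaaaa

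The strand of origin can be read from the mRNAs themselves. The first 90 bases of the light-strand mRNA are set beside those of 3 heavy-strand mRNAs, with the annotated start codon in capitals. MT-ND5 and MT-CYB are its neighbours on either side, and MT-CO2 had the lowest nuclear to cytosolic ratio of the mRNAs.
MT-ND6: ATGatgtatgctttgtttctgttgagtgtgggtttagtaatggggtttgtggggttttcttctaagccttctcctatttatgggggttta
MT-ND5: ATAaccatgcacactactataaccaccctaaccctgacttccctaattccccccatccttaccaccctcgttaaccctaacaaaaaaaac
MT-CYB: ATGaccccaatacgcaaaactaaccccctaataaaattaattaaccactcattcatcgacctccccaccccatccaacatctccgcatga
MT-CO2: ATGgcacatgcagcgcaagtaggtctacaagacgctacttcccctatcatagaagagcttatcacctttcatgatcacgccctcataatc

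Over its full length MT-ND6 held 35.6% G and 7.05% C. The 12 heavy-strand mRNA genes held 6.28% to 16.2% G and 29.5% to 36.0% C. The light-strand mRNA is thus rich in G and the heavy-strand mRNAs are rich in C. The ends of the genes also differ: 6 of the 13 mRNA genes, 5 of them members (MT-ND1, MT-ND2, MT-ND3, MT-CO3 and MT-CYB), stop within their last codon. In such mRNAs the stop codon is known to be completed by the added poly(A) tail. The last 30 bases of MT-ND1 and MT-CYB are shown with the bases of the unfinished codon in capitals.
MT-ND1 end: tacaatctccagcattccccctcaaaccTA
MT-CYB end: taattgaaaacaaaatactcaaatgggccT

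Levels are in FPKM, a count of fragments per kilobase that is scaled to library size, so genes can be compared per length within a library. For short loci, such as MT-ND3 with 346 and MT-ND6 with 525 bases, that comparison depends on the length correction, which was not tested. Between libraries the unit is relative to a library scaling that the sources used here do not give, and it is not an amount per cell. The values summed to 666927 FPKM in control whole-cell and to 1.78e+06 FPKM in control cytosolic RNA. In bulk RNA fewer cells with a transcript and less RNA per cell cannot be told apart. The summed FPKM of chrM made up 6.41% of the control and 6.39% of the knockdown total in whole cells. The nuclear libraries had 6.56% and 8.61%, and the cytosolic ones 1.39% and 1.16%. The cytosolic libraries thus held the smallest mitochondrial share and the knockdown nuclear library the largest. Names of small RNAs took 52.9% to 63.2% of the summed FPKM, and without them the chrM shares were 14.1% and 13.6%, 16.1% and 19.1%, and 3.66% and 3.16% in the same order.

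The labels were checked on other genes. HNRNPU, the targeted gene, in a locus merged with its antisense RNA, was left at 43.0% of the control in whole cells, at 39.0% in the nuclear and at 22.1% in the cytosolic preparation. MALAT1, a long noncoding RNA retained in the nucleus, had log2 nuclear to cytosolic ratios of 3.82 in control and 4.47 in knockdown, and NEAT1 of paraspeckles had 2.29 and 2.19. TUG1, on the same list of nuclear RNA markers, went the other way, with -0.14 and -0.11. These were the 3 loci of that list with a mean of at least 1 FPKM. All 13 loci of the K562 marker list averaged 1 FPKM or more, among them GATA1 with 26.2 to 55.9 FPKM. Of 10 markers of other cell types, MS4A1 and CDH5 were listed at 0, and only CD3E (up to 2.12 FPKM) and EPCAM (up to 23.7) had a mean of at least 1. That list summed to 13.76 and 16.81 FPKM in whole-cell RNA, to 21.82 and 22.03 FPKM in the nuclear and to 27.03 and 29.05 FPKM in the cytosolic libraries. The low values implied about 13.7 to 40.2 fragments for 1 FPKM over 1 kilobase, fewest in control cytosolic and most in knockdown nuclear RNA.

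Complex I, the NADH dehydrogenase, is represented by 5 members. MT-ND1 (chrM:3307-4262), a membrane subunit next to the quinone site, had 3233 FPKM in the control and 4292 in the knockdown nuclear library. The cytosolic libraries had 1398 and 1250 FPKM, and the whole-cell ones 2800 and 2703. As deposited, both nuclear libraries were above both cytosolic ones, with whole-cell RNA between, and the knockdown nuclear library was the highest of the 6. The log2 ratio of nuclear to cytosolic RNA was 1.21 in control and 1.78 in knockdown.

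MT-ND2 (chrM:4470-5511), a proton-pumping membrane subunit, had 3511 and 4827 FPKM in the nuclear libraries, control first, 1970 and 1679 in the cytosolic and 3401 and 3244 in the whole-cell ones. MT-ND3 (chrM:10059-10404), a small membrane subunit, had 3225 and 4409, 1850 and 1481, and 2878 and 2917 FPKM in the same order. In both genes control nuclear RNA lay only a little above whole-cell RNA as deposited. With libraries scaled to equal medians, control nuclear RNA lay below whole-cell RNA in both. For MT-ND2 the log2 nuclear to cytosolic ratio was 0.83 in control, under the size rule, and 1.52 in knockdown. For MT-ND3 it was 0.80 and 1.57. MT-ND3 is the shortest single-name member, and no fragments were estimated for it, since the estimate was kept to loci of at least 500 bases.

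MT-ND5 (chrM:12337-14148), another proton-pumping subunit, was much less abundant, with 962 and 1386 FPKM in the nuclear libraries, 362 and 381 in the cytosolic and 742 and 789 in the whole-cell ones. Its log2 nuclear to cytosolic ratios were 1.41 and 1.86. MT-ND6 (chrM:14149-14673, light strand), which encodes a membrane subunit, had the lowest level of the 9 mRNA loci in every library. The nuclear libraries had 834 and 866 FPKM, the cytosolic ones 134 and 175 and the whole-cell ones 434 and 425. Unlike the MT-ND5 pair, the nuclear values of MT-ND6 lay close together in control and knockdown. Its nuclear to cytosolic ratio was 6.20-fold in control and 4.94-fold in knockdown, log2 values of 2.63 and 2.30.

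Complex III, the cytochrome bc1 complex, has MT-CYB (chrM:14747-15887) as its only mitochondrially encoded subunit, cytochrome b. It had 1667 and 2522 FPKM in the nuclear libraries, 776 and 832 in the cytosolic ones and 1422 and 1605 in whole cells. The knockdown library was the higher one in each of the 3 preparations. Its log2 nuclear to cytosolic ratio was 1.10 in control and 1.60 in knockdown.

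Complex IV, cytochrome c oxidase, has its 3 core subunits on chrM. MT-CO1 (chrM:5904-7445), the catalytic subunit with the heme centers, was the most abundant single-name member in all 6 libraries. Its nuclear libraries had 6570 and 7817 FPKM, against 2551 and 2426 in the cytosolic and 4256 and 4159 in the whole-cell ones. The nuclear libraries again stood above all others, and the log2 ratios were 1.36 and 1.69.

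MT-CO2 (chrM:7586-8269), the subunit that receives electrons from cytochrome c, had 3117 and 4155 FPKM in the nuclear libraries, 2392 and 1908 in the cytosolic and 2888 and 2868 in the whole-cell ones. Its preparations lay closest together of all the mRNA loci in the control, with a 1.30-fold nuclear to cytosolic ratio, and its knockdown ratio was 2.18-fold. The merged locus of MT-ATP6, MT-ATP8 and MT-CO3 was listed at 21902 and 25900 FPKM in the nuclear libraries, 9950 and 7907 in the cytosolic and 16715 and 16889 in the whole-cell ones. That entry alone made up 37.6% to 41.6% of the chrM sum. The level of MT-CO3 cannot be separated from it, and the sources used here do not give how its transcripts, MT-ATP8 of 207 bases among them, enter the value. Its log2 nuclear to cytosolic ratios, 1.14 and 1.71, lay among those of the other mRNAs.

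**Figure D1:**
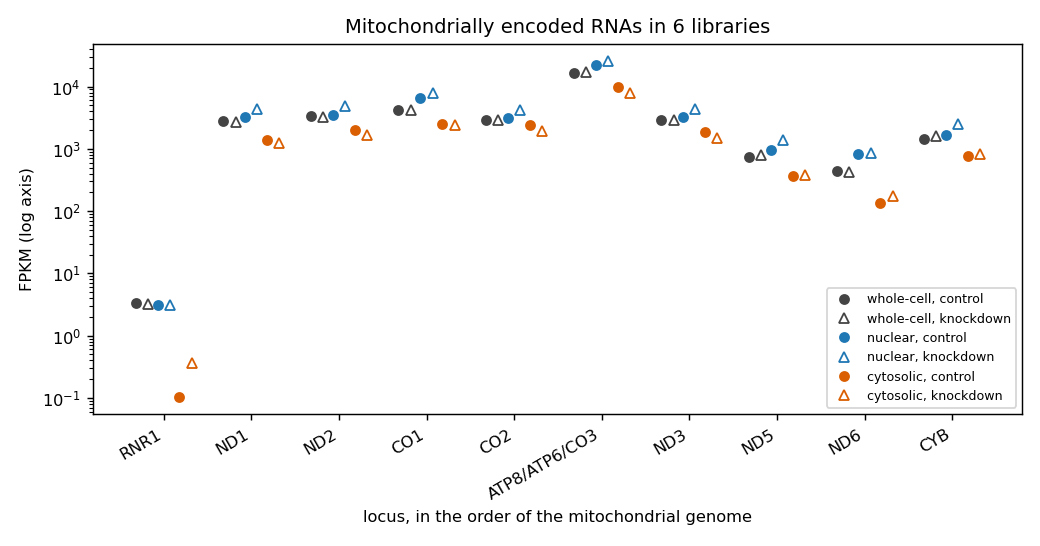
FPKM of each member locus (x axis) on a log axis (y axis), with 1 point for each of the 6 libraries and no error bars because each group is 1 library. The mRNA loci lie from 134 to 25900 FPKM with nuclear above cytosolic points, and MT-RNR1 lies far below them, between 0.102 and 3.30 FPKM.

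MT-RNR1 (chrM:648-1601) encodes the small ribosomal RNA of the organelle, the 12S rRNA. It was listed at 3.09 and 3.12 FPKM in the nuclear libraries, 0.102 and 0.369 in the cytosolic and 3.30 and 3.27 in the whole-cell ones. Such values lie far below those of the mRNAs, and the labels' protocols record depletion of ribosomal RNA before library preparation. From the steps in low FPKM values they stand for about 44 and 89.5 fragments in the nuclear libraries, 1 and 4 in the cytosolic and 56 and 45 in the whole-cell ones. The nuclear to cytosolic ratio in fragments per depth was 30.3 in control, with a 95% exact counting interval of 5.16 to 1224. In knockdown it was 8.41, with an interval of 3.17 to 31.6. These intervals cover counting error only and overlap widely, so a difference between the conditions was not detectable at this depth. MT-RNR2, the large ribosomal RNA gene, is not a member and stood at 0.1001 to 1.29 FPKM, a mean below the minimum used here.

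Per length, the order of the 8 single-name mRNAs was stable at its ends. MT-CO1 came first and MT-CYB, MT-ND5 and MT-ND6 came last, in that order, in each of the 6 libraries. MT-ND2 was second in both whole-cell and both nuclear libraries, and MT-CO2 was second in both cytosolic ones. MT-ND1, MT-ND3 and MT-CO2 exchanged places between libraries, and with 1 library a group no spread separates such neighbours. The merged MT-ND4L and MT-ND4 locus of complex I, which is outside the member list, had 6602 FPKM in control whole-cell RNA and log2 nuclear to cytosolic ratios of 1.16 and 1.73.

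The question of where mitochondrial RNA was recovered was asked of all members together. In control cells 7 of the 10 loci were at least 2-fold higher in nuclear than in cytosolic RNA, against 16% of all loci tested, and the other 3 were MT-ND2, MT-ND3 and MT-CO2. MT-RNR1 is 1 of the 7, and it passed the minimum only through the nuclear and whole-cell libraries, so its place there says little. Without it, 6 of the 9 mRNA loci were at least 2-fold higher in control and 9 of 9 in knockdown. With libraries scaled to equal medians the control count of mRNA loci was 8, against 24.7% of all loci, and with equal sums 9, against 38.7%. In knockdown cells 10 of 10 loci were at least 2-fold higher, against 14.4% of all loci as deposited. That share was 23.3% with equal medians, 39.9% with equal sums and 38.7% without chrM and small RNAs, each beside 10 of 10. All 10 were above 0 in both conditions, against 34.8% of all loci in control and 32.9% in knockdown as deposited. These shares were 55% and 55.3% with equal medians, and 75.7% and 79.7% with equal sums. Without chrM and small RNAs they were 79.1% and 78.5%, and all 10 members stayed above 0 under each scaling. As deposited, the 7 loci past 2-fold in control were past it in knockdown too, against 12.6% of all loci past it in both. The median log2 ratio over the members was 1.17 in control and 1.70 in knockdown, and over all loci tested it was -0.44 and -0.47.

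The whole-cell libraries were set beside the fractions. As deposited, all 9 mRNA loci had a whole-cell level between the cytosolic and the nuclear level in both conditions, against 38.6% of all loci in control and 39% in knockdown. In control that count depends on the scaling. It was 6 of 9 with equal medians, where MT-ND2, MT-ND3 and MT-CO2 were higher in whole-cell than in nuclear RNA, against 54.5% of all loci. It was 4 of 9 with equal sums, against 47.8%, and 8 of 9 with equal sums without chrM and small RNAs, against 61.7%. In knockdown it was 9 of 9 under each of these scalings, which placed 47.9% to 60.5% of all loci between the fractions. All ratios between preparations depend on the library scaling. With libraries scaled to equal medians, the median of all loci in the control moved from -0.44 to 0.14, and with equal sums to 0.67. A scaling moves the members and all loci alike, so the difference between their medians, 1.62 in control and 2.17 in knockdown as deposited, is nearly fixed by construction.

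**Figure D2:**
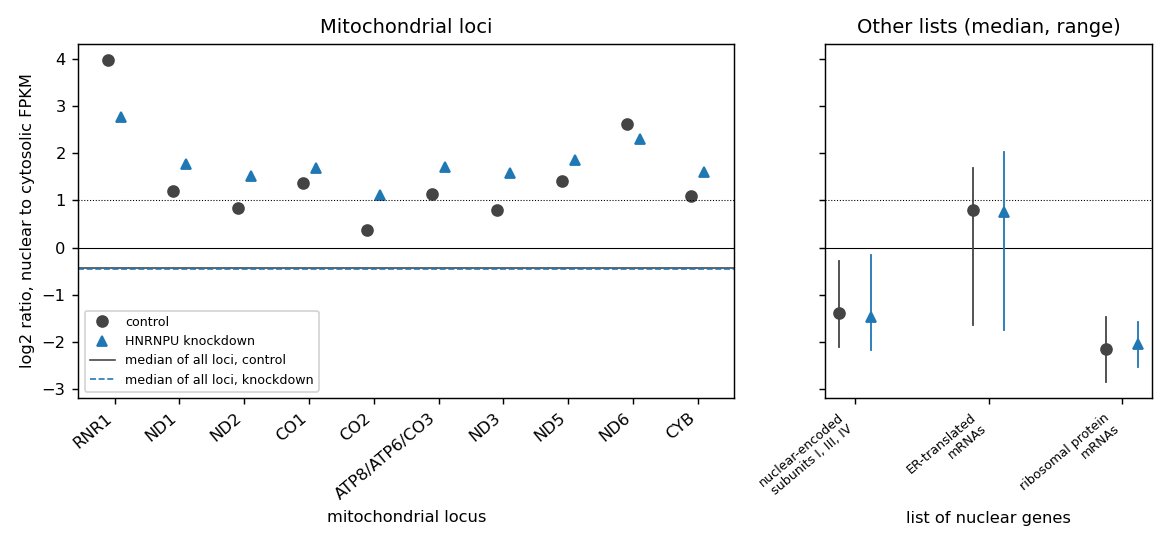
Log2 ratio of nuclear to cytosolic FPKM of each mitochondrial locus in control and knockdown cells, beside the median over all loci tested. The member loci lie above 0 in both conditions, and the median of all loci lies at -0.44 in control and -0.47 in knockdown.

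The light-strand mRNA stood apart from the heavy-strand mRNAs in this ratio. The median log2 nuclear to cytosolic ratio over the 8 heavy-strand mRNA loci was 1.12 in control and 1.64 in knockdown. MT-ND6 stood above each of the 8 in both conditions. Its log2 ratio minus the heavy-strand median was 1.51 in control, a 2.85-fold difference, and 0.66 in knockdown, a 1.58-fold difference. A difference between loci of the same libraries does not depend on library scaling. From about 526 fragments in its smallest library, the 95% counting half-width of the ratio of MT-ND6 was 0.13 in control and 0.11 in knockdown on the log2 scale, for counting error only.

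The same contrast appears within single libraries. Here the median was taken over the 7 single-name heavy-strand mRNA loci, without the merged MT-CO3 locus. MT-ND6 stood at 25.8% of that median level in control and 20.2% in knockdown nuclear RNA. In the cytosolic libraries it stood at 7.27% and 11.8%, and in the whole-cell ones at 15.1% and 14.8%. The share was highest in control nuclear and lowest in control cytosolic RNA, and the knockdown libraries lay between them. Against MT-ND5, the adjacent gene on the opposite strand, it had 86.6% and 62.5% in the nuclear libraries, 37.1% and 45.99% in the cytosolic and 58.5% and 53.9% in the whole-cell ones. Against MT-CYB it had 49.99% and 34.3%, 17.3% and 21.1%, and 30.5% and 26.5% in the same order. The libraries were strand-specific per the labels' protocols, but the sources used here do not give whether counting used the strand. Fragments of the precursor from the opposite strand could therefore have been counted at MT-ND6, and their part in its values was not tested.

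**Figure D3:**
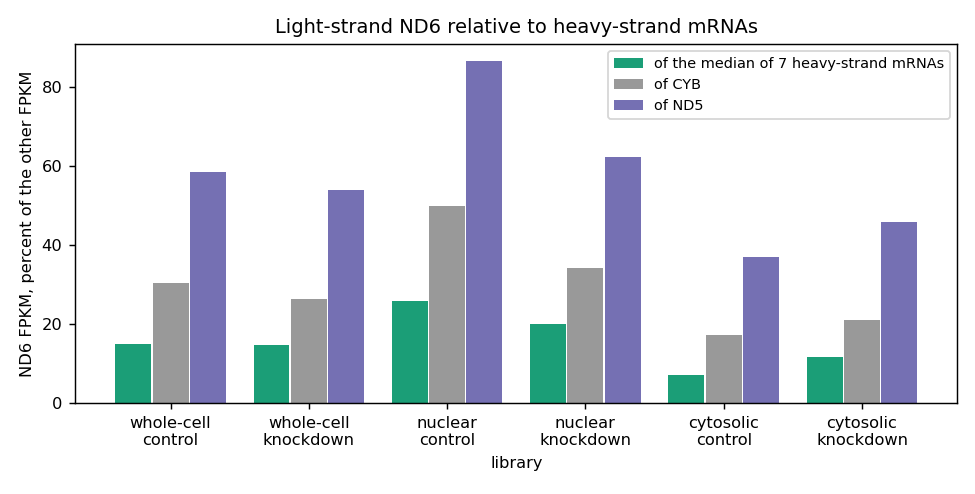
Level of the light-strand mRNA MT-ND6 as a percentage (y axis, linear from 0) in each of the 6 libraries. It is set against the median of the 7 single-name heavy-strand mRNA loci, against MT-CYB and against MT-ND5. The percentage of the heavy-strand median is 25.8 in control nuclear RNA and 7.27 in control cytosolic RNA, with the knockdown libraries at 20.2 and 11.8.

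The respiratory complexes differed less. The median log2 nuclear to cytosolic ratio was 1.21 in control and 1.78 in knockdown over the 5 complex I loci, 1.10 and 1.60 for MT-CYB of complex III, and 1.14 and 1.69 over the 3 complex IV loci. Complex I minus complex IV was 0.07 in control and 0.09 in knockdown. Without MT-ND6 the 4 heavy-strand loci of complex I had medians of 1.02 and 1.68, and their difference from complex IV was -0.12 and -0.01. The order of these complexes therefore depends on whether the light-strand mRNA is counted. It also depends on the merged locus: with single-name loci only, complex I minus complex IV was 0.34 in control and 0.37 in knockdown.

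Within complex IV the balance of the members differed between preparations. MT-CO1 stood at 2.11 and 1.88 times MT-CO2 in control and knockdown nuclear RNA, 1.07 and 1.27 times in cytosolic RNA, and 1.47 and 1.45 times in whole-cell RNA. MT-CO2 took 20.9% and 18.8% of the summed FPKM of the 8 single-name mRNA loci in the cytosolic libraries, 13.5% and 13.7% in the nuclear ones and 15.3% in both whole-cell ones. So its share was highest in the cytosolic libraries in both conditions. MT-CO1 took 28.4% and 25.8% in nuclear RNA and between 22.2% and 23.9% in the other 4 libraries. Complex I as a whole took 49.0% to 54.5% over the 6 libraries, complex III 6.79% to 8.58% and complex IV 37.6% to 43.2%.

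**Figure D4:**
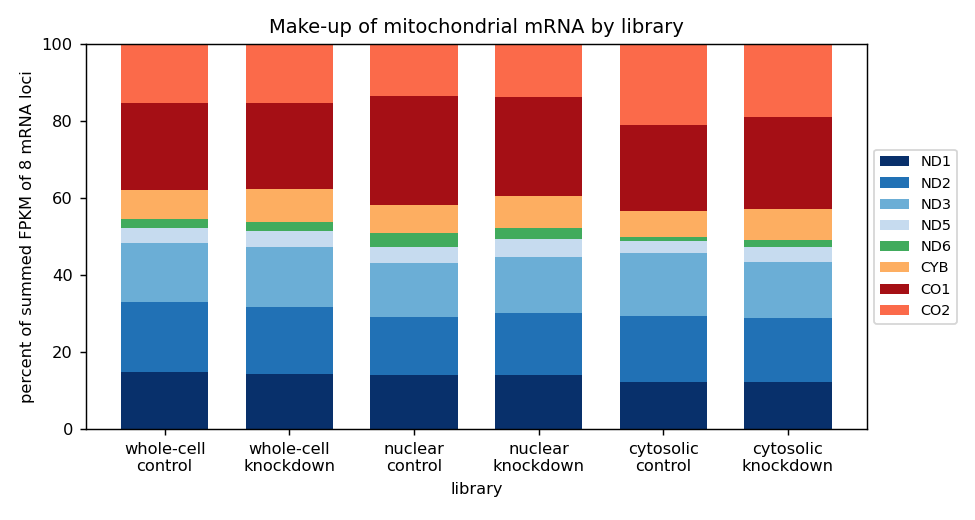
Share of each of the 8 single-name mRNA loci in their summed FPKM (y axis, percent) in each of the 6 libraries. MT-CO2 takes 20.9% and 18.8% in the cytosolic libraries and 13.5% and 13.7% in the nuclear ones, and MT-ND6 takes 1.18% to 3.61%.

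Knockdown and control were then compared within each preparation. In nuclear RNA 10 of 10 member loci were higher after knockdown than in the control, against 54% of all loci tested, and 0 were 2-fold higher, against 1.04%. With equal medians 9 were above 0, against 50% of all loci, and MT-RNR1 was below. With equal sums over all loci it was 10, against 63%, and with equal sums without chrM and small RNAs again 9, against 49%. The log2 ratio was largest in MT-CYB with 0.60 (1.51-fold) and MT-ND5 with 0.53 (1.44-fold). It was 0.45 in MT-ND3, 0.46 in MT-ND2, 0.41 in both MT-ND1 and MT-CO2, and 0.24 and 0.25 in the merged MT-CO3 locus and MT-CO1. MT-ND6 with 0.05 and MT-RNR1 with 0.01 were the smallest. The median over the members was 0.41, against 0.03 over all loci.

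In cytosolic RNA 4 members were higher after knockdown, against 54.3% of all loci tested, and 6 were lower, against 44%. MT-CO2 and the merged MT-CO3 locus had a log2 ratio of -0.33, MT-ND3 of -0.32, MT-ND2 of -0.23, MT-ND1 of -0.16 and MT-CO1 of -0.07. MT-ND5 had 0.07, MT-CYB 0.10 and MT-ND6 0.38, so the loci above 0 were the 3 least abundant mRNAs and MT-RNR1. MT-RNR1 was the 1 locus past 2-fold, against 2.62% of all loci, with a log2 ratio of 1.21. It rests on 4 fragments against 1, a ratio of 3.61 with a counting interval of 0.358 to 178. With equal sums its log2 ratio was 0.94, and with a pseudocount of 1 FPKM 0.31, both under the size rule.

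Whole-cell RNA was not fractionated. Its log2 ratios of the 10 loci ran from -0.07 in MT-ND2 to 0.17 in MT-CYB, with a median of -0.01 against 0.06 over all loci. There 4 loci were above 0, against 60.7% of all loci, and 6 below, against 39%. With equal medians 2 were above 0, against 47.6% of all loci, since MT-ND3 and the merged MT-CO3 locus changed sign. At 2-fold, 0 loci were past the rule in either direction, against 1.36% higher and 1.29% lower.

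**Figure D5:**
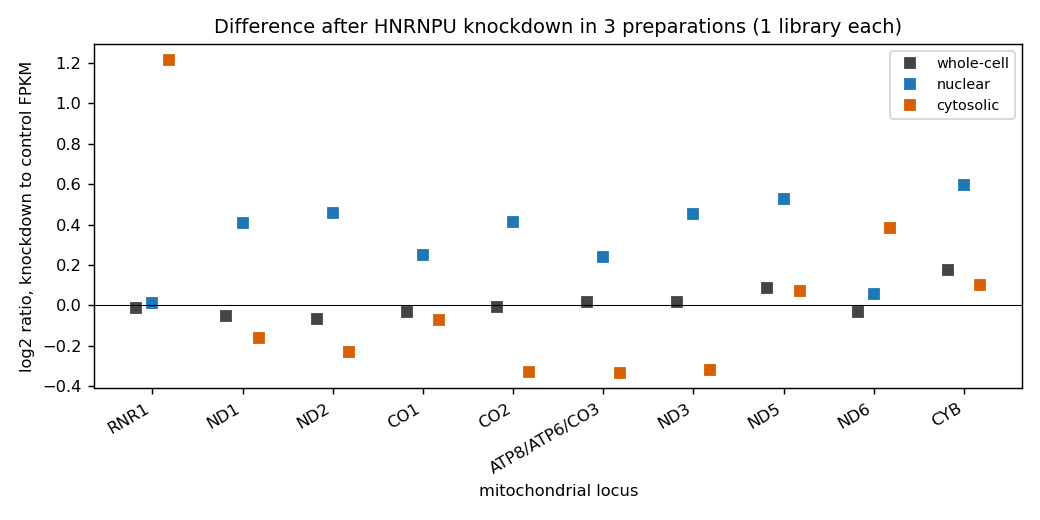
Log2 ratio of knockdown to control FPKM of each member locus in whole-cell, nuclear and cytosolic RNA, with a single library on each side of every ratio. The nuclear values lie at 0.01 to 0.60, the whole-cell values at -0.07 to 0.17, and 6 of the cytosolic values lie below 0.

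The nuclear to cytosolic log2 ratio after knockdown minus that in the control is called the localization shift here, and a value above 0 is toward the nuclear preparation. It was above 0 in 8 of the 8 heavy-strand mRNA loci, against 50% of all loci tested as deposited. That share was 51.1% with equal medians, 60.7% with equal sums and 44.2% without chrM and small RNAs, and the 8 loci stayed above 0. The values were 0.77 in MT-ND3, 0.74 in MT-CO2, 0.69 in MT-ND2, 0.57 in both MT-ND1 and the merged MT-CO3 locus, 0.50 in MT-CYB, 0.45 in MT-ND5 and 0.32 in MT-CO1. MT-ND6 lay below each of the 8, at -0.33. None of these 9 reached the 2-fold rule, which 3.28% of all loci passed toward the nucleus. The median shift over the members was 0.53, and over all loci it was 0.000539. It uses the same 4 fraction libraries as the ratios above and is not further evidence.

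The fractions behind the shift differed between the members. In 6 of the 9 mRNA loci the knockdown library was higher in nuclear and lower in cytosolic RNA, against 19.8% of all loci tested. The other 3, MT-ND5, MT-ND6 and MT-CYB, were higher in both. For the single-name mRNA loci of at least 500 bases, the 95% counting half-width of the shift was 0.02 to 0.05, and 0.17 for MT-ND6. Counting error is thus smaller than these shifts, but it leaves out the variation between cultures and fractionations, which 1 library a group cannot show. MT-RNR1 was the 1 member with a shift of at least 2-fold toward the cytosol, against 3.82% of all loci, at -1.20. With a pseudocount of 1 FPKM in place of 0.1 its shift was -0.30, and with equal sums it was -0.87.

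Other RNAs of the same libraries give the setting of these ratios. MALAT1, a nuclear RNA, had a shift of 0.66, NEAT1 of -0.10 and TUG1 of 0.03. The 28 loci whose mRNAs are translated at the endoplasmic reticulum had a median log2 nuclear to cytosolic ratio of 0.79 in control and 0.75 in knockdown. Of these 28, 11 were at least 2-fold higher in nuclear RNA in control, against 16% of all loci, and 10 in knockdown, against 14.4%. Among them were GLG1, a Golgi protein gene, with log2 ratios of 1.68 and 1.37, and CD46, a complement regulator gene, with 1.45 and 2.03. SEC61B was the lowest of the list in both conditions, with -1.65 and -1.76. Above 0 were 25 of the 28 loci in control, against 34.8% of all loci, and 27 in knockdown, against 32.9%. These counts are as deposited and were not repeated under the other scalings. The 31 loci of cytosolic ribosomal proteins had medians of -2.15 and -2.05. The endoplasmic reticulum list thus had a median above 0 as the mitochondrial mRNAs did, and its median differed by less between the conditions. The part of the fractionation in the mitochondrial values was not tested.

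Most subunits of the same complexes are encoded in the nucleus and translated in the cytosol. The 58 such loci (37 of complex I, 9 of complex III and 12 of complex IV) had a median log2 nuclear to cytosolic ratio of -1.39 in control, from -2.11 to -0.29, and of -1.47 in knockdown, from -2.18 to -0.16. In both conditions 0 of 58 lay above the lowest mitochondrially encoded mRNA. That order does not depend on library scaling. Their median log2 knockdown ratio was 0.05 in whole cells and -0.01 and 0.06 in the nuclear and cytosolic preparations, and 0 of 58 were past 2-fold. Of all loci, 1.36% were 2-fold higher and 1.29% lower in whole cells. In nuclear and cytosolic RNA 1.04% and 2.62% of all loci were 2-fold higher, and 193 and 338 of the 12838 loci were 2-fold lower. With shares this small, 0 of 58 does not set these loci apart.

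The genes that make and process mitochondrial RNA were given as 3 lists. For transcription of mitochondrial DNA, 15 loci had median log2 knockdown ratios of 0.09 in whole cells and of 0.06 and 0.17 in the nuclear and cytosolic preparations. TFAM, which packages mitochondrial DNA and starts its transcription, had 26.2 and 27.9 FPKM in whole-cell RNA. TEFM, the mitochondrial transcription elongation factor, stood at the edge of the rule in nuclear RNA, with 5.23 FPKM in control and 10.5 in knockdown. That is 2.001-fold without a pseudocount, a log2 ratio of 0.99 with the pseudocount of 0.1 FPKM, and 1.05 with equal sums. In whole-cell RNA it had 7.49 and 8.97 FPKM.

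For RNA processing and modification, 19 loci had medians of 0.17, 0.15 and 0.14 in the same order. ELAC2, which trims the 3' end of transfer RNAs, had 22.3 and 13.2 FPKM in cytosolic RNA, a log2 ratio of -0.75, and 11.1 and 14.6 in whole-cell RNA. For stability, polyadenylation and decay, 16 loci had medians of 0.06, 0.05 and -0.02. FASTKD3, a gene of a family that acts on mitochondrial mRNAs, had 7.54 and 12.01 FPKM in whole-cell RNA, a log2 ratio of 0.66, and PNPT1, the mitochondrial polynucleotide phosphorylase, had 9.30 and 12.1 in nuclear RNA, a log2 ratio of 0.37. With the pseudocount and the deposited scaling, 0 of the 50 loci of these lists passed the size rule between knockdown and control in any preparation, and with equal sums TEFM passed it in nuclear RNA. Of all loci, 1.36% were 2-fold higher and 1.29% lower in whole cells as deposited. In nuclear and cytosolic RNA 1.04% and 2.62% of all loci were 2-fold higher, and 193 and 338 of the 12838 loci were 2-fold lower. With such shares, 0 of 50 does not set these lists apart.

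Near-identical nuclear copies of mitochondrial genes limit the counts of some members. MTND2P28, on chromosome 1 (chr1:565020-566063, hg19), matches MT-ND2 in 1025 of 1042 bases, and its longest identical run is 266 bases. A stretch of 61 bases around the first difference, T267C counted from the first base of MT-ND2, shows how little tells the copies apart, with the differing base in capitals.
MT-ND2: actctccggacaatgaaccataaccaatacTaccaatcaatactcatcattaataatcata
MTND2P28: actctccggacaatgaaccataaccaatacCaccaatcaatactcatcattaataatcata

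MTND2P28 was listed at 339 and 477 FPKM in the nuclear libraries, 228 and 185 in the cytosolic and 315 and 329 in the whole-cell ones. This was 9.25% to 11.6% of MT-ND2 in every library. Its log2 nuclear to cytosolic ratios, 0.57 and 1.36, its knockdown ratios of 0.49 in nuclear and -0.30 in cytosolic RNA, and its shift of 0.79 had the same signs as those of MT-ND2. In whole-cell RNA the signs differed, with a log2 knockdown ratio of 0.06 for MTND2P28 and -0.07 for MT-ND2. The merged locus of MTATP6P1 and MTATP8P1 had 0.557% to 0.862% of the level of the MT-CO3 locus. MTND1P23 had 0.340% to 0.573% of the level of MT-ND1. Which of the fragments at these loci came from chrM cannot be told apart with these files. The loci hsa-mir-6723 and RP5-857K21.7 lie between MTND2P28 and MTATP6P1, and their sequences were not compared here. They span 1543 and 682 bases, against 1542 for MT-CO1 and 684 for MT-CO2. RP5-857K21.7 had log2 nuclear to cytosolic ratios of 0.03 and 1.03, and hsa-mir-6723 of 1.11 and 1.34. Their shifts were 1.01, past the 2-fold rule, and 0.23. Whether they share fragments with MT-CO1 or MT-CO2 was not tested.

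Outside chrM, the profile over the 6 libraries closest to the members' median was that of JMJD1C, at a Euclidean distance of 0.196 in centred log2 values. VPS13A followed with 0.204, ACAD8 with 0.247, SLC8B1 with 0.293 and ITGAV with 0.303, among the 8440 named loci that averaged 5 FPKM or more. JMJD1C had 21.4 and 25.9 FPKM in the nuclear libraries, 9.64 and 9.50 in the cytosolic and 17.5 and 18.2 in the whole-cell ones. These 5 loci were picked for their likeness, which is a description over 6 libraries. Among the members themselves MT-ND2 lay closest to the median profile, at 0.135, and MT-ND6 and MT-RNR1 lay farthest, at 1.27 and 2.90.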

How the data were processed

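Per the labels' protocols, RNA was taken with TRIzol, depleted of ribosomal RNA and made into strand-specific libraries for an Illumina HiSeq X-10. The authors deposited FPKM values, 1 column per library; no header names the unit, which was read from the values and tools. Per the submitters' processing notes, Cuffdiff 2.2.1, TopHat2 2.0.13, FastQC and CASAVA were among the tools, and mm9 and hg19 are listed without a role. The sources used here do not give the mitochondrial reference, the annotation, the library scaling or the use of strand in counting.

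Ratios are differences of log2(FPKM + 0.1), which understate the change of low loci, over the 12838 loci whose mean reached 1 FPKM. Fragments were estimated from steps in the low FPKM of loci with 1 exon, their length less 240 bases, for single-name loci of at least 500 bases. Biopython 1.88, matplotlib 3.10.9, scipy 1.17.1, pandas 2.3.3 and numpy 2.4.6 ran under Python 3.11.15, and the calculations were tested on simulated data. Alternatives were pseudocounts of 0.01 and 1, 3 scalings, other minimums and single-name loci only.

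The members and lists were chosen with earlier results of these data known. The text names every member and other chrM genes, per list up to 4 loci with the largest ratios of any kind and up to 4 with the largest knockdown ratios, the 5 loci closest in profile, MALAT1, NEAT1 and HNRNPU. GATA1, MS4A1 and CDH5 were named outside that rule after their values were seen. The scalings of the whole-cell position, of the shares of all loci and of TEFM were added after seeing the data. A share of chrM by FPKM times length was planned and not computed, because merged and spliced loci have no single length. Sequences are GENCODE release 29 transcripts.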

Additional observations from a re-analysis of the deposited data

Results flagged for a closer look

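In 6 mRNA loci the knockdown library was higher than the control in nuclear RNA and lower in cytosolic RNA, so that the fractions moved in opposite directions. The resulting shift toward the nuclear preparation on the log2 scale was 0.57 in MT-ND1, 0.69 in MT-ND2, 0.32 in MT-CO1, 0.74 in MT-CO2, 0.57 in the merged locus of MT-ATP6, MT-ATP8 and MT-CO3, and 0.77 in MT-ND3. With 1 library a group these differences were not tested.

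A locus with no gene name at chrM:1-400, outside the member list, had a mean of 658 FPKM over the 6 libraries. The nuclear libraries had 1011 and 1062 FPKM, control first, the cytosolic ones 345 and 333 and the whole-cell ones 613 and 582. Its strand is not given in the table.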

How the results depend on the processing

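No paired analysis was possible because each group has 1 library, and for the same reason no replicate could be left out. Over 12 summary results and 8 alternative settings, 74 values stayed within their limits and 22 moved. The limits were the median counting half-width for ratios and a fixed ratio for counts. A change of direction was defined only for ratios of at least 2-fold, and 0 of these changed direction. Lifting the minimum mean could change nothing, because all members passed it. The 3 scalings could hardly change the strand and complex differences, which compare loci of the same libraries. The median nuclear to cytosolic log2 ratio of the members was 1.77 in control and 2.31 in knockdown with equal medians, 2.33 and 2.94 with equal sums over all loci, and 2.42 and 2.91 with equal sums without chrM and small RNA names. In control it was 1.14 at a minimum mean of 5 FPKM and 1.21 with single-name loci, and in knockdown 1.64 with a pseudocount of 1. The median shift was 0.62 with equal sums and 0.49 without chrM and small RNAs. The median knockdown ratio in nuclear RNA was 0.38, 0.48 and 0.38 under the 3 scalings in that order. In whole-cell RNA it was -0.089 with equal medians and -0.076 with equal sums without chrM and small RNAs. In cytosolic RNA it was -0.16 with equal medians, -0.16 at the minimum of 5 FPKM and -0.073 with single-name loci. Single-name loci gave complex I minus complex IV of 0.34 and 0.37, and light minus heavy strand of 0.71 in knockdown. Apart from the scalings and the removal of loci, which act by construction, the cause was not tested. The count of members at least 2-fold higher in nuclear RNA in control ran from 6 to 10. Added after seeing the data, the count of mRNA loci with a whole-cell level between the fractions in control was 9 as deposited, 6 with equal medians, 4 with equal sums and 8 without chrM and small RNAs.

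Depth limits MT-RNR1, whose cytosolic values rest on 1 and 4 fragments. Of 468 values of single loci 119 moved, 0 changed a called direction and 6 changed sign: the whole-cell ratios of the merged MT-CO3 locus and MT-ND3 and the nuclear ratio of MT-RNR1, each with equal medians and with equal sums without chrM and small RNA names. The other minimums and the single-name setting only drop loci, so the values of the loci they keep are unchanged by construction. A called direction exists only for values of at least 2-fold, so smaller values could not change one.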

Other observations

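The 21 transfer RNA loci, which hold all 22 transfer RNA genes of chrM, were each listed at 0 in all 6 libraries. Single loci among them were 59 to 75 bases long. All 21 are shorter than the 240 bases taken off each length in the fragment estimate. A value of 0 at these loci therefore does not show that the transfer RNAs were absent.

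The 3 mRNA loci that were higher in both fractions after knockdown, MT-ND5, MT-ND6 and MT-CYB, are neighbours on chrM, from position 12337 to position 15887, and are the 3 least abundant of the mRNA loci. Their log2 knockdown ratios in cytosolic RNA were 0.07, 0.38 and 0.10. This grouping was noticed after the values were seen, and whether position or level goes with the ratio was not tested.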
